A study of Mus musculus with 6 samples.

Results

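The genes described here encode 10 growth factor receptor tyrosine kinases: Egfr, Erbb2, Erbb3 and Erbb4 of the EGF receptor family, the PDGF receptors Pdgfra and Pdgfrb, the FGF receptors Fgfr1 and Fgfr2, the IGF receptor Igf1r and the HGF receptor Met. They were taken by name from the 23152 genes of the array. A gene was read from every probe set (a group of probes that reads one stretch of a gene) annotated to that gene symbol alone, and its value was the mean of those probe sets on the log2 scale. The 10 genes had between 16 and 31 probe sets each, 224 in all, and none was lost to a filter.

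A receptor of this class spans the cell surface, binds a growth factor outside the cell, pairs with another receptor and places phosphate on tyrosines of its own tail. Adaptor proteins dock on those tyrosines and pass the signal to the RAS-ERK and PI3K-AKT cascades. The receptors carry N-glycans on the parts outside the cell, and Mgat1 encodes N-acetylglucosaminyltransferase I, the enzyme that starts hybrid and complex N-glycans. In the mouse testis PDGFRA is known for its part in the development of adult Leydig cells, and the IGF receptor for its part in the growth of the Sertoli cell population.

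RNA came from testicular germ cell preparations of 22-day-old FVB mice, with 1 mouse on each of 6 arrays. In the study's methods the 3 control mice were Mgat1[F/F] and the 3 mutant mice were Mgat1[F/F]:Stra8-iCre, called Mgat1 cKO below, so both groups carried the floxed Mgat1 alleles and only the mutant group carried Cre. The Stra8 promoter drives the Cre in spermatogonia, so that germ cells and not the somatic cells of the testis are its target. Testes were digested with collagenase and trypsin, tubules were left to sediment and cells were filtered through mesh, and no sorting step was described. The sources name no litter, scan date or slide for an array.

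The deposited values were log2 RMA signals (background-corrected, normalised between arrays and summarised over probes) between 2.11 and 14.33, with array medians between 7.31 and 7.38. No detection call accompanied them, so a dim gene may be near background, and the strength of signal depends on the probes, so that levels were not compared between genes. Over the means of all 23152 genes, arrays of one genotype correlated at 0.992 to 0.994, and arrays of different genotypes at 0.950 to 0.970. Mgat1 itself had signals of 6.91, 7.003 and 6.82 in control and 6.87, 6.69 and 6.80 in Mgat1 cKO (log2 difference -0.13, 95% interval -0.34 to 0.09, limma adjusted p = 0.356). Whether its 12 probe sets lie inside the deleted part is not given, so this value does not check the labels. The paper checked the deletion by other means. It reports much lower Mgat1 transcripts by qRT-PCR in mutant germ cells at 22 days, and genotyping that found deleted alleles only.

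Spermatocyte markers had list means of 9.94 to 10.48 on the 6 arrays. Markers of somatic testis cells also had values, but without detection calls these alone do not show how many somatic cells remained. The paper checked purity by qRT-PCR. It reports much lower Rhox5 (Sertoli cell) and Cyp11a1 (Leydig cell) transcripts in germ cell preparations than in testis. It ascribes the Mgat1 transcripts of the preparations to a small fraction of cells other than germ cells. Of the germ cell lists, 8 of 8 elongating and 7 of 8 round spermatid markers were higher in Mgat1 cKO (median log2 changes 3.27 and 1.98). Of 11 spermatocyte markers 8 were lower (median -0.54), while Ccna1 was higher (0.62, limma adjusted p = 0.00122). Over all genes 13.3% were higher and 18.4% were lower. In such bulk samples, fewer cells of a type and less RNA per cell cannot be told apart.

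The stretches before the annotated starts of 7 of the 10 genes were found in RefSeq (build GRCm38.p6), and those of Pdgfra, Egfr and Igf1r are shown because these 3 receptors fell with no overlap between the groups. Each sequence covers the 250 bases before the start, 5′ to 3′ on the strand of the gene. Capitals mark a GC box (GGGCGG on either strand), the one motif found here in the 3 stretches. The Pdgfra stretch lies at chr5:75152001-75152250 on the plus strand.
Pdgfra: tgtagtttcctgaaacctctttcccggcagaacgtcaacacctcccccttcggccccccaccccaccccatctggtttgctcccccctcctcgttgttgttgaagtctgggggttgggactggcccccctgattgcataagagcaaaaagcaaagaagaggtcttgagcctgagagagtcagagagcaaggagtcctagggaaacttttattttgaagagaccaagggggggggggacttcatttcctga
The Egfr stretch lies at chr11:16751953-16752202 on the plus strand.
Egfr: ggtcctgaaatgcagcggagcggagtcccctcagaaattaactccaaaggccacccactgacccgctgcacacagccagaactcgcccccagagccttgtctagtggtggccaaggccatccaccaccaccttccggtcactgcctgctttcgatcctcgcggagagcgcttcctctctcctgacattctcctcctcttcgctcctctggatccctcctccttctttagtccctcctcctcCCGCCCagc
The Igf1r stretch lies at chr7:67952007-67952256 on the plus strand.
Igf1r: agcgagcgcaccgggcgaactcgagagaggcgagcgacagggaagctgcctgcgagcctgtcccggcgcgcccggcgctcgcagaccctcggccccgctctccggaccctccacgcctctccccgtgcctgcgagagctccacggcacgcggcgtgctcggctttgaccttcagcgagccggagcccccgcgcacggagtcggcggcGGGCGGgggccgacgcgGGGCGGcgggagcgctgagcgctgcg
The 3 stretches differed widely in base composition. G and C made up 54.4% of the Pdgfra stretch, 60.8% of the Egfr stretch and 77.6% of the Igf1r stretch, against a median of 52.4% over 32851 promoters of the same length. CpG pairs numbered 4, 11 and 42 in the same order (median over all promoters 6). The GC box, known as a site for SP family factors, was present once before Egfr, 2 times before Igf1r and not before Pdgfra, and 32.7% of all promoters held at least 1. The CCAAT box (CCAAT, in 33.8% of promoters), the TATA box (TATAAA, in 12.4%) and the cAMP response element (TGACGTCA, in 1.55%), each searched on both strands, had no match in the 3 stretches.

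At 22 days, 4 of the 10 receptor genes fell in Mgat1 cKO germ cell preparations (limma, adjusted p below 0.05 over all genes): Pdgfra, Egfr, Fgfr2 and Igf1r. None of the 10 rose, at the adjusted or at the unadjusted threshold of 0.05, which 42.5% of all genes passed in either direction. Over all 23152 genes tested, 18.4% were called lower and 13.3% were called higher. The median log2 change of the receptors was -0.23, beside -0.02 over all genes, and 9 of 10 values were below 0, as were 53.4% of all genes. Control and Mgat1 cKO arrays did not overlap for 3 receptors, all lower in the mutant, where the groups were separate for 46.7% of all genes and 26.6% were lower with no overlap. The standard errors of the 10 changes lay between 0.093 and 0.22, around the median of 0.109 over all genes.

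**Figure D1:**
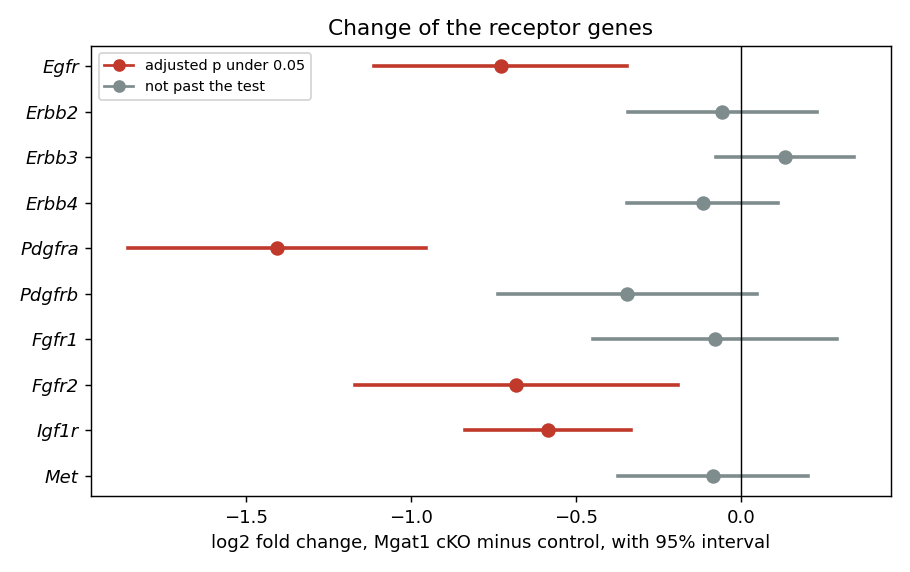
Change of each receptor gene, plotted as the log2 difference Mgat1 cKO minus control with its 95% interval from limma (3 arrays a group). The intervals of Pdgfra, Egfr, Fgfr2 and Igf1r lie wholly below 0, and those of the other 6 genes span 0.

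Pdgfra, the receptor for PDGF-A and other PDGF chains, had the greatest change of the 10. Its signals were 9.32, 9.11 and 8.83 in control and 7.25, 8.09 and 7.70 in Mgat1 cKO. Every mutant array was below every control array, with a gap of 0.74 between the groups. The means were 9.08 ± 0.25 (SD, n = 3) and 7.68 ± 0.42 (SD, n = 3), a 2.65-fold lower signal (log2 change -1.41, SE 0.20, 95% interval -1.86 to -0.95, limma adjusted p = 0.000851). Only 35 of the genes called lower had a greater fall. Leaving out any 1 array gave changes of -1.61 to -1.19, and the call held each time.

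Pdgfrb, which binds PDGF-B and PDGF-D and is known from pericytes and smooth muscle, did not pass the test. Its signals were 7.14, 7.78 and 7.50 in control and 6.86, 7.35 and 7.17 in Mgat1 cKO, and the groups overlapped. The change was -0.34 (SE 0.17, 95% interval -0.74 to 0.05, limma adjusted p = 0.165). Control replicate 1 was the lowest control array and lay below the highest mutant array. Without it the change was -0.51 and passed the test (limma adjusted p = 0.0389).

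Egfr, the receptor for EGF, TGF-alpha and related ligands, fell 1.66-fold. Its signals were 7.79, 7.68 and 7.38 in control and 6.53, 7.18 and 6.96 in Mgat1 cKO. The groups did not overlap, and the gap between control replicate 3 and Mgat1 cKO replicate 2 was 0.20. The means were 7.62 ± 0.21 (SD, n = 3) and 6.89 ± 0.33 (SD, n = 3), with a log2 change of -0.73 (SE 0.17, 95% interval -1.11 to -0.34, limma adjusted p = 0.0109). The call held without any 1 array (-0.87 to -0.55), but not on the brightest Egfr probe set alone (-0.97, adjusted p = 0.074) or by the test the study's methods name, without moderation of the variance (adjusted p = 0.102).

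The 3 other members of the EGF receptor family did not pass the test. Erbb2, which has no known ligand of its own and pairs with the other members, had signals of 6.56, 6.99 and 6.73 in control and 6.63, 6.86 and 6.62 in Mgat1 cKO (log2 change -0.06, SE 0.13, 95% interval -0.34 to 0.23, limma adjusted p = 0.773). The direction was not settled, since Erbb2 was higher in the mutant when each gene was read from its brightest probe set (0.63, adjusted p = 0.0198). That probe set, 17256016, had the same value of 8.6583 on all 3 control arrays, so its control spread was not informative. In the test over all probe sets it did not pass (limma adjusted p = 0.0581). Erbb3, a neuregulin receptor with little kinase activity, was the one receptor with a value above 0. Its signals were 5.80, 5.76 and 5.61 in control and 5.79, 5.89 and 5.89 in Mgat1 cKO (log2 change 0.13, SE 0.093, 95% interval -0.07 to 0.34, limma adjusted p = 0.303). With the dimmest 25% of the probe sets with only 1 gene symbol left out, the Erbb3 change was 0.32 (adjusted p = 0.0468).

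Erbb4, a neuregulin receptor with an active kinase, gave different calls under different summaries. Its signals were 5.44, 5.65 and 5.47 in control and 5.30, 5.51 and 5.41 in Mgat1 cKO, with overlap (log2 change -0.12, SE 0.10, 95% interval -0.34 to 0.11, limma adjusted p = 0.421). The median of its probe sets was lower in the mutant (-0.57, adjusted p = 0.0171). With the dimmest 50% of the probe sets with only 1 gene symbol left out, Erbb4 was higher in the mutant (0.38, adjusted p = 0.0179). Of its 28 probe sets, 19 were in the dimmest 25%, whose bound was a mean signal of 5.93. That bound was set over the probe sets with only 1 gene symbol.

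Igf1r, the receptor for IGF-I and IGF-II, fell 1.50-fold, and its arrays were the least spread of the lowered receptors. Its signals were 7.46, 7.81 and 7.62 in control and 7.15, 6.95 and 7.04 in Mgat1 cKO, with a gap of 0.31 between the groups. The means were 7.63 ± 0.17 (SD, n = 3) and 7.05 ± 0.099 (SD, n = 3), with a log2 change of -0.59 (SE 0.11, 95% interval -0.84 to -0.33, limma adjusted p = 0.00412). Without any 1 array it was -0.67 to -0.50 and stayed past the test. On the median of its probe sets it was -0.51 (adjusted p = 0.0571).

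Met, the receptor for hepatocyte growth factor, did not pass the test. Its signals were 6.36, 6.26 and 5.88 in control and 6.10, 6.03 and 6.12 in Mgat1 cKO, so that the mutant arrays lay inside the control range. The change was -0.08 (SE 0.13, 95% interval -0.37 to 0.20, limma adjusted p = 0.653).

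Fgfr2, which binds FGF7, FGF10 and other FGFs according to its splice form, fell 1.60-fold, by a margin that rested on single arrays. Its signals were 6.37, 6.69 and 6.24 in control and 5.30, 6.26 and 5.70 in Mgat1 cKO, and the highest mutant array lay just above the lowest control array. The means were 6.43 ± 0.23 (SD, n = 3) and 5.75 ± 0.48 (SD, n = 3), with a log2 change of -0.68 (SE 0.22, 95% interval -1.17 to -0.19, limma adjusted p = 0.0397). The call held without Mgat1 cKO replicate 2 (-0.93, adjusted p = 0.00498) and was lost without any 1 of the other 5 arrays (adjusted p between 0.051 and 0.128, changes -0.78 to -0.46). It held in 8 of 19 alternative settings, whereas Pdgfra held in 19, Igf1r in 18 and Egfr in 16.

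Fgfr1, the other FGF receptor of the group, did not pass the test as a gene. Its signals were 7.57, 7.09 and 7.01 in control and 6.92, 7.35 and 7.16 in Mgat1 cKO, with overlap. The change was -0.08 (SE 0.16, 95% interval -0.45 to 0.29, limma adjusted p = 0.749). Its sign turned without control replicate 1 (0.10) and without Mgat1 cKO replicate 1 (0.03).

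**Figure D2:**
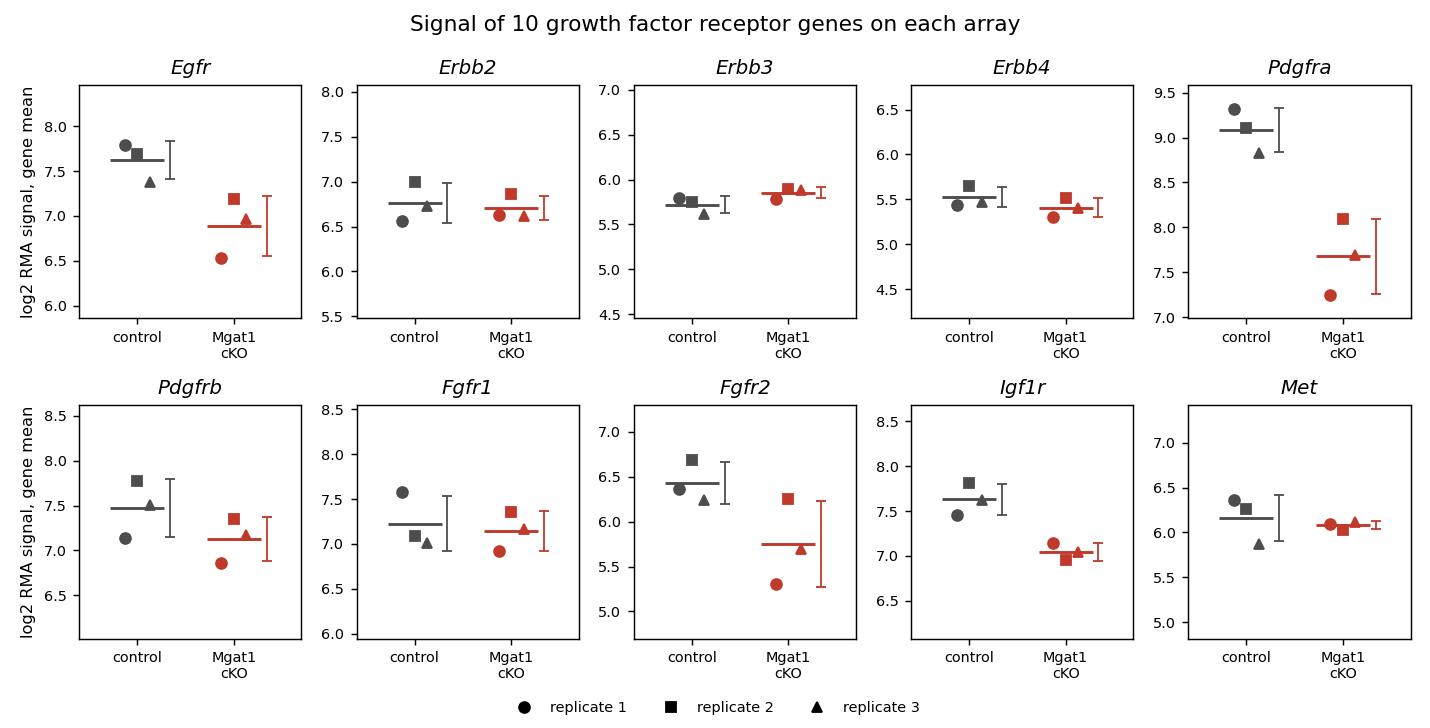
Log2 RMA signal of each receptor gene on the 6 arrays, with control in grey and Mgat1 cKO in red, the group mean as a line and the SD as a bar at the side. The panels span the same number of log2 units, and the groups are separate for Pdgfra, Egfr and Igf1r only.

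Whether 2 related receptors changed by different amounts was tested on the difference between them within each array. For Pdgfra minus Pdgfrb the difference was 2.18, 1.33 and 1.33 in control and 0.39, 0.73 and 0.53 in Mgat1 cKO, a change of -1.06. The groups did not overlap, yet 3 arrays against 3 cannot give an exact permutation p below 0.1. The p was 0.1 (exact, two-sided), or 0.125 adjusted over the 5 pairs compared. The Egfr difference changed by -0.67 against Erbb2, -0.86 against Erbb3 and -0.61 against Erbb4, with no overlap between the groups and the same p in each case. For Fgfr1 minus Fgfr2 the groups overlapped (mutant minus control 0.60, exact permutation p = 0.2, adjusted p = 0.2).

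Single probe sets showed how evenly each gene changed. Of the 224 probe sets of the receptors, 154 (68.75%) were lower in Mgat1 cKO, beside 55.5% of all 269751 probe sets. The test called 22 of them lower (9.82%, where 4.11% of all probe sets were called lower) and 3 higher (1.34%, beside 5.19% of all), where 9.3% of all probe sets were called in either direction. The 4 lowered genes held 17 of those 22. The number of calls depended on single arrays, being 14, 7 and 14 without control replicates 1, 2 and 3, and 10, 21 and 11 without Mgat1 cKO replicates 1, 2 and 3.

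Pdgfra was lower along all of its probe sets. All 17 had a value below 0, between -2.39 and -0.21, 16 separated the groups (as did 34.8% of all probe sets) and 9 passed the test. Its most strongly lowered probe set, 17438269, read 8.90, 8.28 and 8.44 in control and 5.61, 6.03 and 6.80 in Mgat1 cKO (adjusted p = 0.0094). A bright one, 17438259, read 10.73, 10.22 and 9.86 against 8.67, 8.86 and 8.46 (-1.61, adjusted p = 0.0141). These 2 probe sets lie at different brightness and both separated the groups.

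Egfr had 28 of 31 probe sets below 0, with 16 of them separating the groups and 3 past the test. Probe set 17247419 had the greatest fall (-2.22, adjusted p = 0.0308), from 7.43, 7.38 and 6.50 to 3.998, 5.39 and 5.26. In Igf1r 19 of 22 were below 0 and 3 passed. The most strongly lowered of these, 17479101, was also its brightest, and read 9.85, 10.45 and 10.08 in control and 9.23, 9.12 and 8.70 in Mgat1 cKO (-1.11, adjusted p = 0.0322). In Fgfr2 17 of 20 were below 0 and 2 passed, 17496948 (-1.39) and 17496965 (-0.86).

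The probe sets of Fgfr1 moved in both directions. The probe sets 17500115 (-1.25, adjusted p = 0.0406) and 17500117 (-1.20, adjusted p = 0.0122) were lower in Mgat1 cKO. Probe set 17500128 was higher (1.24, adjusted p = 0.0385), from 6.56, 6.72 and 5.93 in control to 7.42, 8.002 and 7.51 in the mutant. limma's diffSplice F test, which asks whether the probe sets of a gene change by unequal amounts, gave an adjusted p of 0.00557 for Fgfr1 and 0.0367 for Fgfr2, and called 29.8% of the 17667 genes it could test. For Pdgfra the same test gave 0.289, and for Egfr 0.118. With the dim probe sets kept, Fgfr1 (0.0119), Egfr (0.0189) and Erbb4 (0.0381) passed and Fgfr2 did not (0.548), beside 26.8% of 20833 genes. The sources do not say which exon each probe set reads.

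Erbb4 held 2 probe sets called lower (-1.55 and -0.95) and 2 called higher (1.37 and 0.95), and 3 of these 4 were among the dimmest 25%. The brighter of the raised ones, 17223966, read 7.70, 7.08 and 7.39 in control and 8.27, 8.20 and 8.53 in Mgat1 cKO. Erbb3 had 1 probe set called lower, also a dim one. In the test over all probe sets Erbb2, Pdgfrb and Met had none past the threshold.

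**Figure D3:**
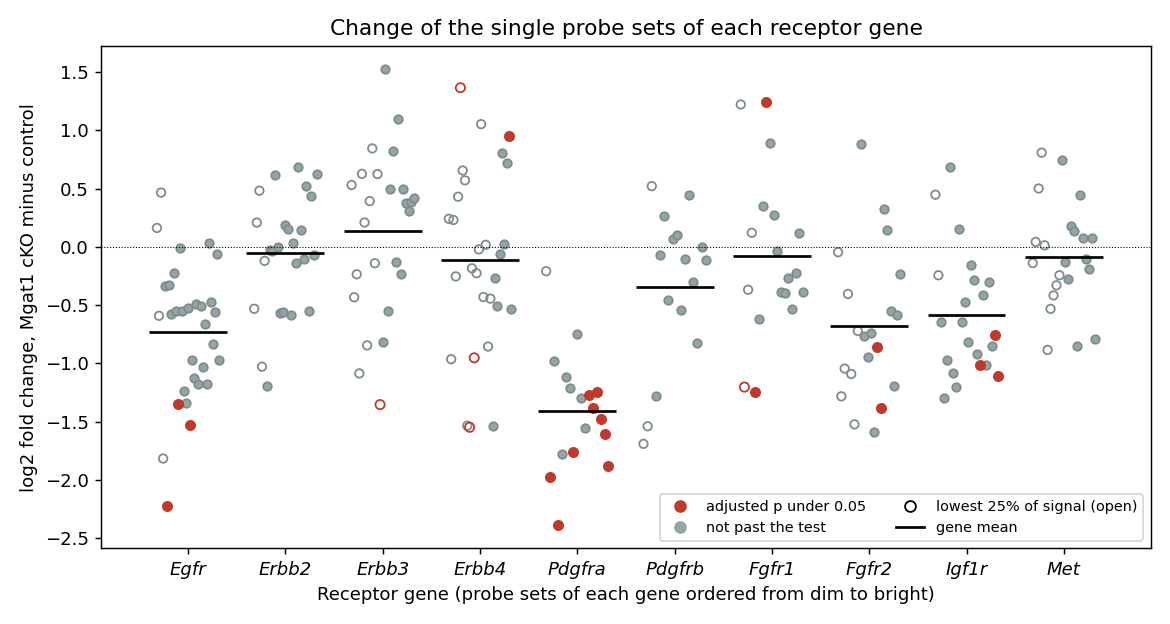
Log2 change (Mgat1 cKO minus control) of each of the 224 probe sets, arranged by receptor gene and, within a gene, from dim to bright. Red points passed the test at probe set level and the line is the gene mean. Open points lie below the bound of the dimmest 25% of probe sets with only 1 gene symbol. The Pdgfra points all lie below 0, and Fgfr1 and Erbb4 have called points on both sides.

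The genes with profiles nearest to Pdgfra and to Egfr were sought among 16291 named genes with 3 or more probe sets, by the root mean square distance over the 6 arrays after each gene was set to its own mean. Nearest to Pdgfra were Dcn (distance 0.13), Efemp1 (0.16), Ecm1 (0.16), Osr1 (0.16) and Ogn (0.17). Dcn and Ogn encode small proteoglycans of the extracellular matrix, Efemp1 and Ecm1 matrix proteins, and Osr1 a transcription factor. Their log2 changes lay between -1.57 (Ogn) and -1.12 (Efemp1). Dcn read 10.97, 10.94 and 10.49 in control and 8.84, 10.01 and 9.61 in Mgat1 cKO, with the mutant arrays in the same order as those of Pdgfra.

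Nearest to Egfr were Lamb1, a laminin chain (distance 0.045), Myc (0.076), Col1a2, a chain of type I collagen (0.080), Mrc1, the macrophage mannose receptor (0.096), and Csf1, the ligand of the macrophage receptor CSF1R (0.096). Their changes lay between -0.82 (Col1a2) and -0.62 (Mrc1). Lamb1 read 8.66, 8.58 and 8.27 in control and 7.49, 8.16 and 7.82 in Mgat1 cKO. Myc lost its call without any 1 of 4 arrays (adjusted p up to 0.0803). By the unmoderated test after adjustment, Dcn, Ecm1 and Ogn of the first 5 genes and all 5 of those nearest to Egfr lost their calls (adjusted p from 0.0604 for Ogn to 0.151 for Myc). On the brightest probe set Efemp1, Lamb1 and Col1a2 lost theirs (adjusted p 0.0575, 0.396 and 0.0569), and Csf1 did on the median of its probe sets (0.272). Likeness of profile over 6 arrays is a description here and was given no test. The genes nearest to Pdgfra and Egfr were picked on these same arrays. Their like changes and like order of arrays follow from that choice.

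**Figure D4:**
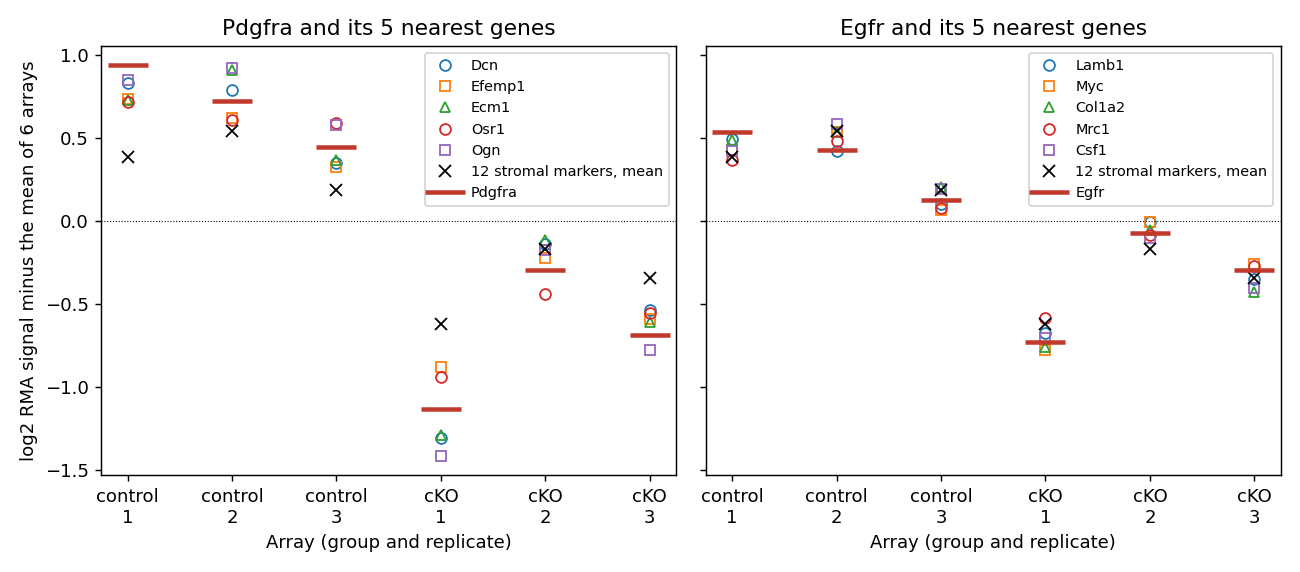
Signal of Pdgfra (left) and Egfr (right), as red bars, with the 5 genes nearest to each and the mean of 12 stromal markers, on each array relative to the mean of the 6 arrays (log2). In both panels the 3 control arrays lie above 0, Mgat1 cKO replicate 1 is lowest and Mgat1 cKO replicate 2 is the highest of the mutant arrays.

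Most stromal markers and 6 of 12 macrophage markers were lower in Mgat1 cKO, where 18.4% of all genes were lower. Of 12 stromal markers 10 were lower (median -0.75), with list means of 8.10, 8.26 and 7.90 in control and 7.09, 7.55 and 7.37 in Mgat1 cKO. Of 12 macrophage markers 6 were lower and Aif1 was higher (median -0.57), with list means of 7.85, 8.13 and 7.75 against 7.01, 7.65 and 7.42. By the test of the study's methods, without moderation of the variance and after adjustment, 1 stromal and 1 macrophage marker passed as lower, and 6 stromal markers were lower when genes were read from their median probe set value or from their brightest probe set. Dcn and Col1a2 belong to the first list and Mrc1 to the second, so these names are shared with the nearest profiles. In both lists Mgat1 cKO replicate 1 was the lowest array and replicate 2 the highest of the mutant arrays. The mutant arrays of 3 lowered receptors, Pdgfra, Egfr and Fgfr2, also had this order, and those of Igf1r did not. The order was not particular to lowered receptors, since Pdgfrb, Fgfr1, Erbb3 and Erbb4, which were not called, had it too. So did the list means of the Leydig cell and endothelial markers.

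Leydig cell markers had means of 8.67, 9.01 and 8.59 in control and 7.65, 8.67 and 8.39 in Mgat1 cKO, with 2 of 10 lower (Hsd3b6 and Fdx1) and Insl3 higher (median -0.47). Without Mgat1 cKO replicate 2 the number lower was 4, without control replicate 2 it was 0, and without any other array it was 1. The Insl3 call was lost without control replicate 1 or 2 or Mgat1 cKO replicate 1 or 3. Sertoli cell markers had means of 7.997, 8.11 and 8.12 against 7.91, 7.69 and 7.63, with 4 of 12 lower (median -0.30). That count ran from 2 to 6 when single arrays were left out, with 2 without control replicate 2 or 3 or Mgat1 cKO replicate 2 or 3. No peritubular myoid marker was called lower (0 of 8), Actg2 was higher and the median was -0.01. Of 8 endothelial markers 1 was lower and 2 were higher (median -0.13), with 1 higher when any 1 array was left out and none lower without control replicate 2 or 3 or Mgat1 cKO replicate 1 or 3, and of 11 spermatogonial markers 3 were lower (median -0.26). The part of these other cells in the receptor values was not tested.

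Of 33 ligand genes listed 32 were measured, of which 3 rose and 1 fell (13.3% of all genes rose and 18.4% fell), with a median of 0.11. None of the 6 measured EGF receptor ligands passed the test. Among them was Hbegf, with signals of 7.01, 7.03 and 7.299 in control and 6.87, 6.85 and 6.81 in Mgat1 cKO (-0.27, limma adjusted p = 0.078). Nrg1, a neuregulin, read 6.48, 6.18 and 6.48 in control and 6.76, 6.75 and 6.67 in Mgat1 cKO (0.35, limma adjusted p = 0.0346). Pdgfd, a ligand of PDGFRB, read 6.28, 6.45 and 6.36 against 6.54, 6.79 and 6.82 (0.35, adjusted p = 0.0321).

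Among 15 FGF genes, Fgf5 alone passed the test (0.47, adjusted p = 0.0196). Hgf, the ligand of MET, was lower (-0.40, adjusted p = 0.0192), at 5.70, 5.71 and 5.79 in control and 5.38, 5.48 and 5.15 in Mgat1 cKO. Igf1, one of the ligands of the IGF receptor, read 7.66, 7.19 and 7.04 against 6.57, 7.35 and 6.79 (-0.39, adjusted p = 0.193). All 4 ligand calls depended on single arrays. Fgf5 was lost without control replicate 2 or 3 or Mgat1 cKO replicate 3 (adjusted p up to 0.070), and Hgf without replicate 3 of either group (up to 0.060). Nrg1 was lost without control replicate 2 or any mutant array (adjusted p up to 0.111), and Pdgfd without control replicate 1 or 3 or Mgat1 cKO replicate 2 or 3 (up to 0.103).

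Of the genes whose products free or hold ligands, 6 of 13 were lower and 1 was higher (46.2% lower, beside 18.4% of all genes; median -0.39). Without control replicate 2 the number lower was 3. Adam10 and Adam17 encode the proteases that shed EGF receptor ligands from the cell surface. Adam10 read 8.88, 9.12 and 8.86 in control and 8.15, 8.09 and 8.27 in Mgat1 cKO (-0.78, limma adjusted p = 0.000567), and Adam17 fell by 0.56 (adjusted p = 0.00287). The IGF-binding proteins Igfbp6 (-0.87), Igfbp3 (-0.59), Igfbp7 and Igfbp4 were lower and Igfbp1 was higher (0.45, adjusted p = 0.0440). The Igfbp6 call was lost without control replicate 2 (adjusted p = 0.0509), as were those of Igfbp7 and Igfbp4. Igfbp3 kept its call without any 1 array. It lost it on the median of its probe sets (limma adjusted p = 0.0548) and on its brightest probe set (limma adjusted p = 0.118). The Igfbp1 call was lost without control replicate 2 or 3 or Mgat1 cKO replicate 1 or 2.

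Of the co-receptors and receptor inhibitors, 7 of 13 were lower and 1 was higher (53.8% lower; median -0.32). With any 1 array left out, 5 or 6 were lower. Errfi1, whose product MIG6 binds and inhibits the EGF receptor kinase, read 9.12, 9.18 and 9.16 in control and 8.06, 8.35 and 8.09 in Mgat1 cKO (-0.99, limma adjusted p = 0.000104). Nrp1, a co-receptor of several growth factors, fell by 0.90 (adjusted p = 0.00552), and its brightest probe set did not pass (-0.71, adjusted p = 0.143). Klb, the co-receptor beta-klotho, fell by 0.67 (adjusted p = 0.00172), and Igf2r, which clears IGF-II from the cell surface, by 0.58. Spint1, an inhibitor of the proteases that activate HGF, rose from 6.95, 7.11 and 7.05 to 7.69, 7.65 and 7.84 (0.69, adjusted p = 0.000713), although its brightest probe set did not pass the test (0.12, adjusted p = 0.612). Spint2, in the same list, went the other way, from 10.42, 10.48 and 10.44 to 10.19, 10.05 and 10.04 (-0.36, limma adjusted p = 0.0145).

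Of 23 adaptors 12 were lower and none was higher (52.2% lower; median -0.30). The single-array counts ran from 8 to 10. Frs2, which links FGF receptors to GRB2, read 9.28, 9.14 and 9.13 in control and 8.35, 8.55 and 8.41 in Mgat1 cKO (-0.75, limma adjusted p = 0.000462). Pik3r1, a regulatory subunit of PI3K, fell by 0.65 (adjusted p = 0.00547), and Ptpn11, the phosphatase SHP2, by 0.51 (adjusted p = 0.00757). Shc1, an adaptor between receptors and GRB2, fell by 0.50 as a gene mean (adjusted p = 0.00645) but not on its brightest probe set (0.01).

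The 47 other receptor tyrosine kinases measured had 10 lower and 5 higher (21.3% and 10.6%, beside 18.4% and 13.3% of all genes; median -0.05). Ntrk3, a neurotrophin receptor, rose from 6.02, 6.23 and 6.11 to 7.33, 6.94 and 6.99 (0.97, limma adjusted p = 0.000390). Ror2, a receptor for Wnt proteins, also rose (0.86, adjusted p = 0.000202), but not on its brightest probe set (0.25, adjusted p = 0.161). Ltk fell by 0.91 (adjusted p = 0.000183), though its brightest probe set did not pass (-0.66, adjusted p = 0.260), and Ryk, another Wnt-binding receptor, by 0.71 (adjusted p = 0.00393). Single arrays moved these counts, to 4 lower without Mgat1 cKO replicate 1 and 6 without Mgat1 cKO replicate 3, and to 3 higher without control replicate 2 and 2 without control replicate 3 or Mgat1 cKO replicate 2.

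**Figure D5:**
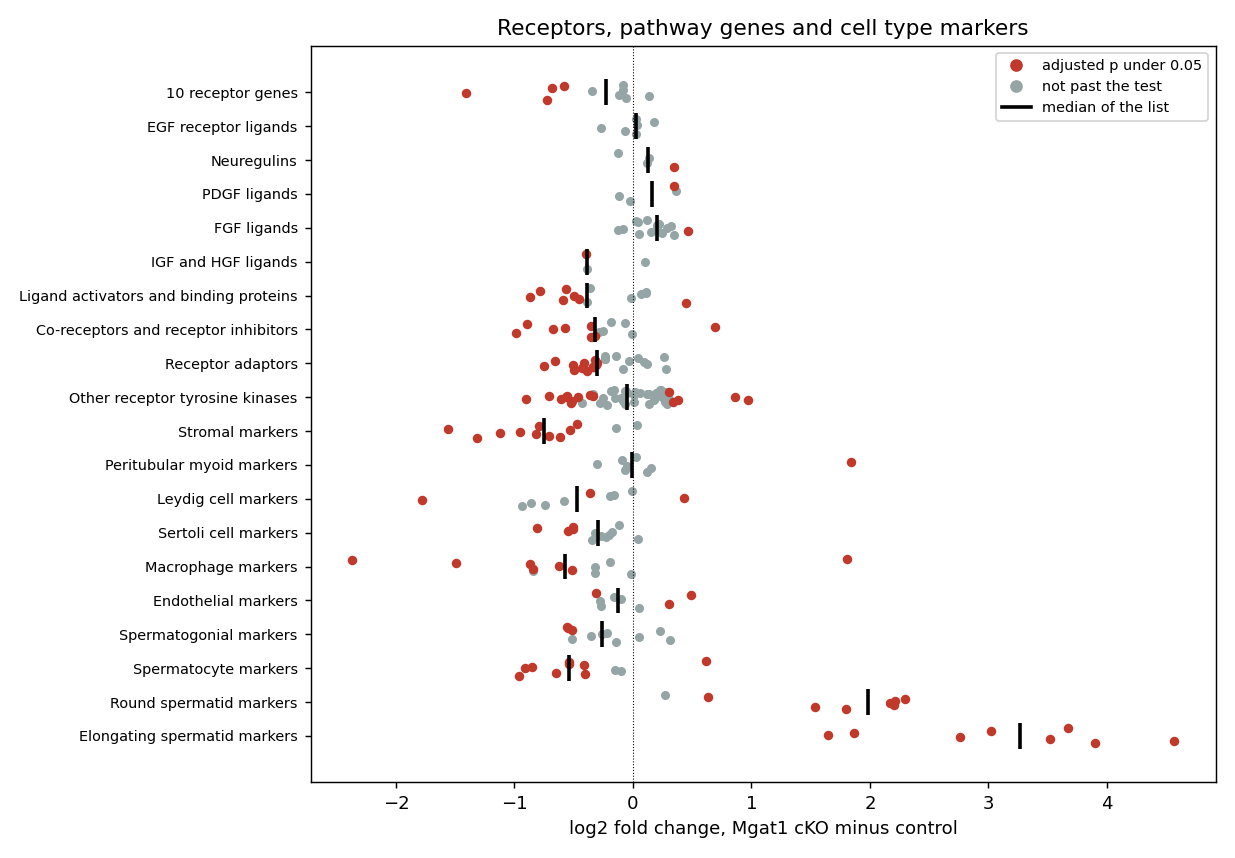
Log2 change (Mgat1 cKO minus control) of each gene in the receptor group, in the 9 lists of ligands, partners and related kinases and in the 10 cell type marker lists, with red for an adjusted p under 0.05 and a black bar at the median of each list. The stromal median of -0.75 lies below the receptor median of -0.23, and the ligand lists other than that of Igf1, Igf2 and Hgf have medians above 0.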

How the data were processed

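Germ cell RNA of 3 control and 3 Mgat1 cKO mice was hybridised to Affymetrix Mouse Gene 2.0 ST arrays. The deposited values were log2 RMA signals per probe set, which the authors made with Affymetrix Expression Console (version and genome build not given in the sources used here). GEO's probe annotation gave 1 symbol to 233753 of 269751 probe sets, several to 5139 and none to 30859, and probe sets of 1 symbol were averaged into 23152 genes. No pseudocount or filter was applied. Groups followed the labels. Gene means and, separately, all probe sets were tested with limma 3.58.1 (R 4.3.3; lmFit, eBayes, two-sided, Benjamini-Hochberg over all features, threshold 0.05). diffSplice was run without the dimmest 25% of probe sets, and pairs of receptors were compared by exact permutation (scipy 1.17.1). The scripts were tested on simulated data.

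The members and lists were chosen with earlier results of these data known. Named were all 10 receptors, Mgat1, up to 4 called genes of largest change per pathway list and the 5 genes with profiles nearest to Pdgfra and Egfr, and further list members were named after their values were seen. Adgre1 was measured as Emr1 and Meiob as 4930528F23Rik, and Areg, Lhcgr and Fdxr were not matched. Some other listed genes are not reported here. The N-glycosylation sites of the receptor proteins were not analysed here. Alternatives covered single arrays, pairing, scaling, probe set filters and summaries, array weights and ANOVA. With 3 arrays a group, their number limits the precision.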

Additional observations from a re-analysis of the deposited data

How the results depend on the processing

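Of the 4 lowered receptors, Pdgfra kept its call in all 19 alternatives, Igf1r lost it on the median of the probe sets, Egfr in 3 and Fgfr2 in 11. The count of 4 became 2 on the brightest probe set (Pdgfra and Igf1r) and 2 by adjusted ANOVA, and ran from 3 to 4 when 1 array was left out. Group medians with adjusted ANOVA, which count among the 19, also gave 2. That alternative took its p from the same ANOVA, so its calls are not a separate test. No receptor was raised, except 1 with the dimmest 25% of probe sets left out (Erbb3), 1 without the dimmest 50% (Erbb4) and 1 on each gene's brightest probe set (Erbb2), and 0 when any 1 array was left out. Receptor probe sets called lower were 7 to 21 when 1 array was left out, against 22. The number of receptors whose probe sets differed among themselves was 2 with dim probe sets left out and 3 with them kept.

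Some values changed sign. Erbb2 was 0.0596 without control replicate 2 (-0.157 to 0.0596 over single arrays left out), 0.14 without the dimmest 50% and 0.63 when read from its brightest probe set. Erbb4 was 0.38 with the dimmest 50% left out. Fgfr1 was 0.0951 without control replicate 1 and 0.0337 without Mgat1 cKO replicate 1 (-0.188 to 0.0951 over single arrays left out), 0.16 on the median of the probe sets and 0.0715 by group medians. Met was 0.0132 without control replicate 1 (-0.229 to 0.0132 over single arrays left out), Mgat1 0.0108 on the brightest probe set, and Shc1, which had passed, 0.0077 on the brightest probe set. The causes were not tested.

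Replicate numbers are shared by the labels of both groups. Deviations of same-numbered arrays correlated at 0.03, 0.10 and -0.06, and control replicate 3 correlated best with Mgat1 cKO replicate 1 (0.107). With so few arrays these values cannot tell whether same-numbered arrays shared a litter or a batch, which the sources do not name. With the replicate number as a block, 5 receptors were lowered (Pdgfrb added, adjusted p = 0.0316) and 9 receptor probe sets. Over all genes 4020 were lower in place of 4255. Centring the arrays on their medians gave 3426 lower and 3654 higher genes (51.6% higher, beside 42.1%), with the same 4 receptors lowered.

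Over all genes, 2629 were lower on the median of the probe sets, 2194 on the brightest probe set and 2408 by adjusted ANOVA. No detection call was used, so 67 of the 224 receptor probe sets, in the dimmest 25%, may be near background.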
